A study of Mus musculus with 6 samples.

Results

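The genes described here are 9 regulators of 1 developmental network in the mouse embryonic lung, the homeobox genes Six2, Six3, Six4 and Six5, the co-activator genes Eya1, Eya2, Eya3 and Eya4, and Dach1. They were chosen by symbol, as every probe set that the array's annotation pairs with 1 of these symbols alone, which gave 14 of the 10833 probe sets with a single gene symbol and 9 of 8251 such genes. The set was put together with earlier results of the same comparison known, so the differences between the regions are given as a description of these arrays. No p-value is printed for these genes, and counts of their calls are not used as support. RNA came from embryonic day E11.5 and was hybridised to 6 arrays. The 3 arrays of the branching region carry RNA of the left and right lung, and the 3 arrays of the non-branching region carry RNA of the main bronchi with some trachea. The labels give no strain, genetic change or treatment for either region, and leave open how many embryos or litters the replicates represent. All p-values given below therefore reflect only how far these samples scatter, which could be technical. Both regions are mixtures of cells, in which fewer cells of a type and less RNA per cell cannot be told apart.

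Six2, Six3, Six4 and Six5 encode transcription factors of the sine oculis homeobox family, which bind DNA through a homeodomain and a conserved domain beside it. EYA proteins do not bind DNA themselves; they join sine oculis factors on target genes, act as co-activators and also carry a protein phosphatase. DACH proteins, related to the SKI co-repressors, join the same complexes and often act as repressors, and PAX genes act upstream of the network in several organs. The network is best known from the eye, ear, kidney and muscle, and in the mouse lung the loss of Eya1 reduces branching.

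Six2 and Six3 lie side by side on mouse chromosome 17, with no annotated gene between them in RefSeq. Their promoters are shown because Six2 separated the regions, whereas Six3 gave no signal above background in either. The windows run from 250 bases before to 50 bases after the annotated start and were taken from RefSeq (GRCm38.p6), for Six2 at chr17:85688205-85688504 on the minus strand and for Six3 at chr17:85620584-85620883 on the plus strand. Capitals mark CCAAT and GGGCGG on either strand.
Six2: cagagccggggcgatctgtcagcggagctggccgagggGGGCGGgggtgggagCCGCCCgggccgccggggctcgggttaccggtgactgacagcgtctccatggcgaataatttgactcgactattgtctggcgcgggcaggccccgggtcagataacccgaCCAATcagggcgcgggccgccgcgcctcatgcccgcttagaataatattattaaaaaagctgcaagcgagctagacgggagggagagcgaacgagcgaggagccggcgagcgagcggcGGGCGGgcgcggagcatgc
Six3: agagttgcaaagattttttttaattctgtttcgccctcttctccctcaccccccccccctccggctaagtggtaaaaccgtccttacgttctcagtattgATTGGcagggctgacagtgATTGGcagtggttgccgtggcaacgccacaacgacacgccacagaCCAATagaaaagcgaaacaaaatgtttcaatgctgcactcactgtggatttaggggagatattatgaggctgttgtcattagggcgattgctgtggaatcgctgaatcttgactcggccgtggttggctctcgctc
The Six2 window held 3 matches to GGGCGG, a GC box, and 1 to CCAAT, whereas the Six3 window held 0 GC boxes and 3 CCAAT matches. Of 32851 promoter windows of this length, 35.7% held GGGCGG and 37.4% held CCAAT. The Six2 window was rich in CG dinucleotides, with 37, and 94.4% of all windows had fewer; the Six3 window had 14, with 63.7% of all windows below it. Neither window held the TATA box letters TATAAA (13.6% of all windows) or TCAGGTT, the core of the MEF3 site that sine oculis factors are known to bind (4.07% of all windows). Of the 9 windows found for 7 of the 9 genes, 1 of the 2 overlapping windows of Six4 held TCAGGTT. These matches describe the letters only, and none is a measured binding site.

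Signals are the deposited linear intensities. The background level used here is 147, below which lay 95% of the 114 readings of 19 probe sets against bacterial and yeast RNA. Of the 14 probe sets, 4 were above it on all 6 arrays (Six2, Six5 and 1 each of Six4 and Eya1), against 46.7% of all probe sets. A further 6 were above it on no array, against 27.3%: both of Six3, both of Dach1, the single probe set of Eya4 and 1 of Six4. Log2 values were taken after raising signals below 16 to 16, and the dimmest 25% of probe sets were left untested. That filter kept 7 probe sets of 6 of the genes and left out every probe set of Six3, Eya4 and Dach1.

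Six2 was the gene of the group that separated the regions. All 3 of its branching values lay below all 3 non-branching values, which was the case for 9.54% of 12422 probe sets on the array; no probe set of the group lay wholly above, against 8.37%. In the limma fit over 9316 probe sets, Six2 was the 1 of 7 tested probe sets whose signal passed an adjusted p of 0.05 with branching the lower region, against 1.13% of all, and 0 were called higher, against 0.902%. Of these 7, 1 lower and 0 higher had an unadjusted p under 0.05, as had 7.7% and 6.92% of all probe sets tested. As the genes were chosen with this comparison known, nothing is read from these counts. The median log2 difference of the 6 genes tested was -0.26 and that of the 6798 genes tested on the array was -0.01.

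**Figure D1:**
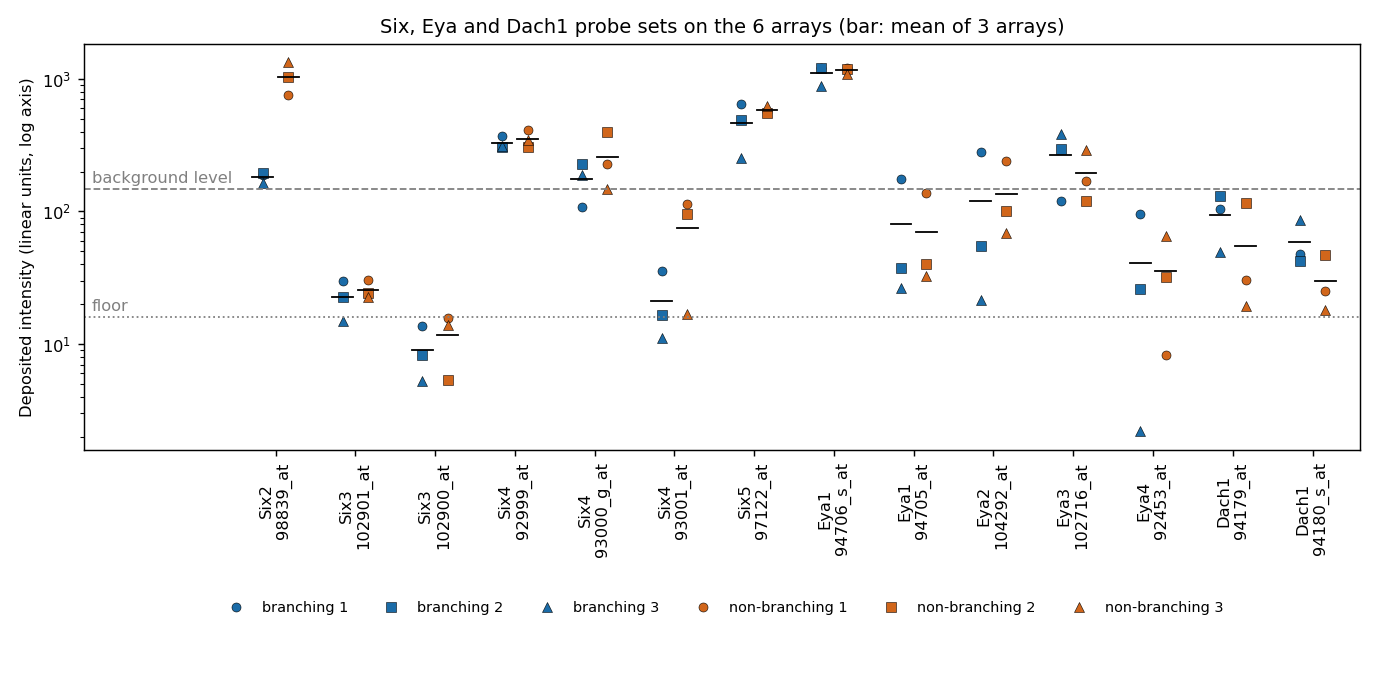
Deposited intensity (log axis) of each of the 14 probe sets on the 3 branching (blue) and 3 non-branching (orange) arrays, with marker shape for the replicate number, a bar for the mean of 3 arrays, a dashed line at the background level of 147 and a dotted line at the floor of 16. The branching and non-branching values of Six2 do not overlap, and those of the other 13 probe sets do.

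Six2 (Entrez gene 20472) encodes the factor known for keeping the nephron progenitors of the kidney undifferentiated, and it is also active in mesenchyme of other organs. Its signal was 189, 195.6 and 163.8 on branching replicates 1, 2 and 3, and 759.5, 1026.1 and 1329.9 on the non-branching ones. The lowest non-branching value was thus far above the highest branching value, and all 6 values were above the background level. The branching values were only a little above that level of 147, so the size of the fold is uncertain. The branching mean was 183 ± 16.8 and the non-branching mean 1038 ± 285 (SD, n = 3 each). The difference, branching minus non-branching, was -2.47 ± 0.25 on the log2 scale (SE of the fit), or 5.55-fold lower in branching as a ratio of geometric means. It was the 8th lowest of the 6798 genes tested. With each array left out in turn it ran from -2.68 to -2.28. The non-branching arrays were further apart than the branching ones, with an SD of 0.40 against 0.14 on the log2 scale.

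Several marker lists for the tissues of the 2 regions held genes that were lower in branching by the same limma fit. In that fit, 1.32% of all 6798 genes tested were lower and 1% higher. These lists too were made with earlier results of these data known, so their counts describe these arrays only. The median log2 difference of the tested genes was -0.86 for smooth muscle, -0.80 for cartilage and -0.61 for skeletal muscle. Of 8 smooth muscle genes, 5 fell, and their summed signal was 5700 to 6392 on the branching arrays and 10912 to 12644 on the non-branching ones, with 1 of the 8 (Smtn) at background throughout. Of 6 tested cartilage genes 3 fell (Matn4, Col9a3 and Col9a2), with sums of 2976 to 3392 and 5728 to 6237 over the 9 on the array. Matn4 averaged 646.5 in branching and 1653 in non-branching (limma adjusted p = 0.00129). Col2a1 was above background on all 6 arrays and its regions overlapped (0.25 ± 0.28, limma adjusted p = 0.758). Acan, Matn1 and Hapln1 were at background on every array. Of 6 tested skeletal muscle genes 2 fell (Tnnt1 and Tnni1), with sums of 1919 to 2611 and 3479 to 4160 over 12. Tnnt1 averaged 220 in branching and 669 in non-branching (limma adjusted p = 0.00763). Acta1, Actn2, Myh3 and Myh8 were near or below background.

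Several lists beyond muscle and cartilage also differed in their sums, in which the brightest genes weigh most. The median log2 difference of the tested genes was -0.44 for the endothelial list and -0.03 for the neuronal and neural crest list. It was -0.22 for lung mesenchyme, 0.45 for red blood cells and 0.06 for epithelium. Sox10 alone averaged 829 in branching and 1718 in non-branching, and Tcf21 alone 1267 and 3304. Of 6 endothelial genes 1 fell (Vwf) and the other 5 did not pass, with sums of 1379 to 1870 in branching and 2438 to 2453 in non-branching. Of 6 tested neuronal and neural crest genes 1 fell (Sox10), with sums of 3685 to 4166 and 4478 to 4923 over 8; Elavl3 and Snap25 were at background. Of 3 tested lung mesenchyme genes 1 fell (Tcf21, by 1.38 on the log2 scale), with sums of 3253 to 3885 and 5173 to 5627 over 4. At an unadjusted p under 0.05, 1 of the 3 was lower and 1 higher. The higher one, Foxf1, read 573.7, 536.9 and 605.9 in branching and 102.5, 247.9 and 380.2 in non-branching. Its regions did not overlap, and it did not pass (1.42 ± 0.42, limma adjusted p = 0.145). Fgf10 was at background. Of 5 tested red blood cell genes 3 rose in branching (Hba-x, Hba-a1 and Hbb-y) and 2 did not pass, with sums of 135955 to 151210 against 87747 to 95262. None of 8 tested epithelial genes was called by limma (1 higher and 1 lower at an unadjusted p under 0.05), and the sums were 4628 to 4929 and 4137 to 4469 over 9. The higher one, Sftpc, read 794, 826 and 649.7 in branching and 286.1, 74.5 and 320.5 in non-branching (1.99 ± 0.49, limma adjusted p = 0.0807). The lower one was Foxa2 (-0.62 ± 0.15, limma adjusted p = 0.0751). The regions did not overlap for either. Of the eye and forebrain genes 1 was tested and did not pass. The part of these tissues in the Six2 difference was not tested.

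Six3, the neighbour of Six2, encodes a factor of the forebrain and eye and was at background in both regions. The brighter of its 2 probe sets read 30.1, 22.5 and 14.8 in branching and 30.3, 24.3 and 22.6 in non-branching. The other read 5.3 to 13.6 and 5.4 to 15.6, below the floor on every array. No level or difference of Six3 can therefore be given. Six6, its close relative of the eye field, was likewise at background, at 25.1 to 53.1 in branching and 17.4 to 28.5 in non-branching.

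Six4, which encodes a factor of muscle precursors, had 3 probe sets that did not behave alike. The brightest, 92999_at, read 373.4, 305.7 and 312.4 in branching and 409.9, 305.1 and 344.4 in non-branching, so the regions overlapped almost entirely, with a log2 difference of -0.09 ± 0.24 (SE). The second, 93000_g_at, of a design shared by a group of probes, read 108.2, 227.6 and 187.8 against 228.3, 394.3 and 148.1. Its values also overlapped, and its difference of -0.51 ± 0.45 was close to its error. The third, 93001_at, was below background on all arrays, at 11.2 to 35.4 in branching and 16.8 to 113.2 in non-branching. Averaged over the 3 probe sets the difference of Six4 would be -0.68, against -0.09 for the brightest alone.

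Six5, which lies next to the myotonic dystrophy kinase gene Dmpk, was above background on all arrays. It read 650.9, 493.5 and 251 in branching and 561.2, 548.4 and 629 in non-branching. Branching replicate 3 was well under the other 5 arrays, which overlapped. The means were 465 ± 201 and 580 ± 43.3 (SD), and the log2 difference of -0.42 ± 0.32 was -0.03 without branching replicate 3.

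Eya1, the co-activator gene whose mutation causes branchio-oto-renal syndrome in people, had 2 probe sets of very unlike brightness. The bright one, 94706_s_at, whose name marks probes shared between transcripts, read 1213.8, 1201.8 and 885.3 in branching and 1214.3, 1194.4 and 1094.3 in non-branching. Replicates 1 and 2 of the regions were nearly equal, and branching replicate 3 was the lowest. Its means of 1100 ± 186 and 1168 ± 64.3 (SD) gave a log2 difference of -0.10 ± 0.16. The dim one, 94705_at, read 175.5, 37.4 and 26.6 against 136.9, 40 and 32.4 and was not tested. Only branching replicate 1 exceeded the background level on it.

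Eya2, a co-activator of muscle and sensory precursors, read 282.9, 54.7 and 21.4 in branching and 239.1, 101.1 and 69.2 in non-branching. Replicate 1 of each region was above background and the other 4 arrays were below it. The highest array was 13.2 times the lowest, and the log2 difference of -0.78 ± 0.92 was smaller than its error; without branching replicate 3 it was 0.07. Among 12422 probe sets, 99.1% had a smaller SD within the regions than that of Eya2, or an equal one.

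Eya3, which encodes a further co-activator phosphatase of the family, read 119.1, 297.6 and 387.1 in branching and 170.4, 120.6 and 291.4 in non-branching. Of these, 2 arrays in each region were above background and the ranges overlapped. Its difference of 0.40 ± 0.50 was the 1 positive value among the 7 probe sets tested, and it was 0.90 when branching replicate 1 was left out and 0.05 when branching replicate 3 was. Eya4, a co-activator gene of the ear and the heart, was below background throughout, at 95.1, 26 and 2.2 in branching and 8.3, 32.2 and 65.5 in non-branching, with no order between the regions.

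Dach1 was below background on both its probe sets. The first, 94179_at, read 103.8, 130.1 and 49.4 in branching and 30.4, 114.9 and 19.2 in non-branching. The second, 94180_s_at, read 47.7, 42.5 and 86.6 against 25.2, 46.6 and 18. On each, the branching mean was the higher one and the ranges overlapped; at these signals no fold is given.

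**Figure D2:**
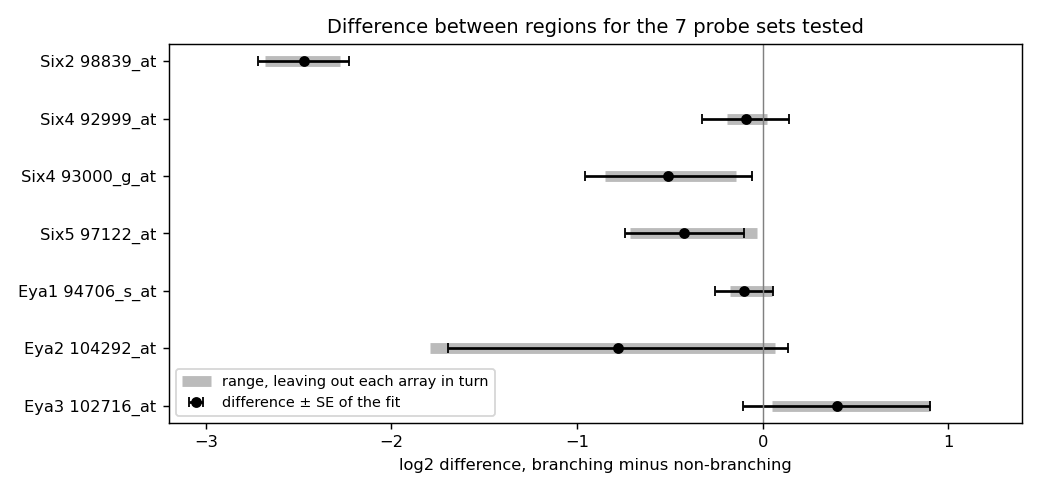
Log2 difference, branching minus non-branching, of the 7 probe sets bright enough to be tested (black, with the SE of the fit), and the range of that difference when each array is left out in turn (grey). Six2 lies at -2.47, and the other 6 lie between -0.78 and 0.40.

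The arrays of replicate 1 were high for several of these genes in both regions, a pattern noticed after the values were seen. In 7 of the 14 probe sets the highest branching and the highest non-branching value both came from replicate 1, as did 1367 of all 12422 probe sets. They were both probe sets of Six3 and of Eya1, 2 of Six4 and that of Eya2, so they stem from 4 genes, and 4 of the 7 were too dim to be tested. Over all tested probe sets the deviations of same-numbered arrays from their region's mean correlated at -0.01 to 0.01.

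Genes with a profile like that of Six2 were sought by the root mean square difference of log2 signals over the 6 arrays, each gene centred on its own mean. The nearest of the other genes tested was Myh11, the smooth muscle myosin heavy chain gene, at 0.33, where the median gene was at 1.30. It read 143.4, 178.5 and 194.8 in branching and 795.4, 694.9 and 838.2 in non-branching. Zfp467, a zinc finger gene, followed at 0.35, with 37.2 to 70.9 in branching, below background, and 202.7 to 335 in non-branching. Mgp, the matrix Gla protein gene of cartilage and vessel walls, was also at 0.35, with 476.5 to 586.3 and 2107.9 to 2529.1. Lypd8 was at 0.37, with 38.8 to 60.1 and 117.4 to 193.6, and the retinoic acid receptor gene Rarg at 0.38, with 86.7 to 142 and 487.3 to 644.2. Lypd8 and Rarg, like Zfp467, were below background on all 3 branching arrays, so their distances to Six2 rest in part on levels that were not measured. The likeness rests mainly on the step between the regions. Within non-branching, Six2 and Zfp467 were lowest on replicate 1 and highest on replicate 3, as was Lypd8, whereas Myh11, Mgp and Rarg were lowest on replicate 2.

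**Figure D3:**
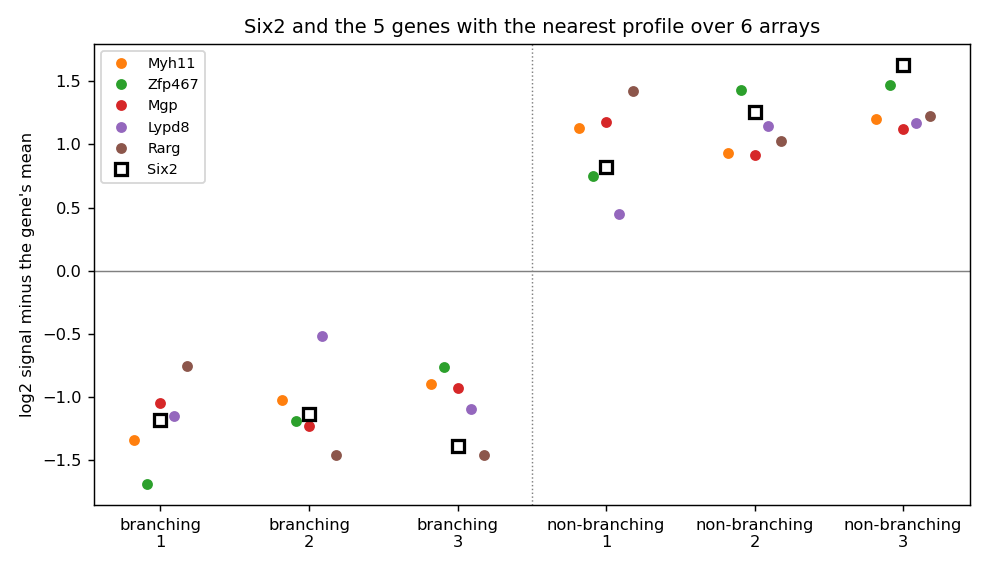
Log2 signal minus each gene's own mean on the 6 arrays for Six2 (open squares) and the 5 genes nearest to it (points, shifted sideways for visibility). All 6 genes lie below their mean on the 3 branching arrays and above it on the 3 non-branching arrays.

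The other genes of the network were taken from a list made by function, with earlier results of these data known. Its counts and p-values are therefore a description of these arrays. The list held 64 genes, of which 49 were on the array and 37 were tested with 1 probe set per gene. Of these, 1 fell in branching, 0 rose and 36 did not pass (limma adjusted p under 0.05), where 1.32% of all 6798 genes fell and 1% rose. At an unadjusted p under 0.05, 6 of the 37 were lower and 2 higher, where 8.43% of all genes tested were lower and 7.16% higher. Their median log2 difference was 0.02, beside -0.01 for all genes tested.

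The gene that fell was Foxc2, a forkhead gene of progenitor mesenchyme in the kidney, somites and great vessels. It read 74.8, 214.8 and 65.2 in branching and 737.5, 740.6 and 471.5 in non-branching, so the regions did not overlap. With the branching arrays below background raised to that level, it was at least 3.81-fold lower in branching (limma adjusted p = 0.0211). The call was kept in 1 of 6 omissions of an array, that of branching replicate 2 (adjusted p = 0.00543). With branching replicate 1 or 3 left out the adjusted p was 0.0600 and 0.0712, and with non-branching replicate 1, 2 or 3 left out it was 0.0810, 0.0996 and 0.0623. It was 0.128 when the variance had no trend and 0.0968 when dim probe sets were kept. A second probe set of Foxc2 differed in the same direction and did not pass (-2.36, adjusted p = 0.129).

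The remaining 8 tested genes of progenitor mesenchyme did not pass (list median -0.58, 9 tested). Among them Gdnf and Gfra1, named after their values were seen, encode the ligand and co-receptor of the signal that drives the ureteric bud of the kidney to branch, and Gdnf is a known target of the network there. Gdnf read 152.1, 163.6 and 204.9 in branching and 325.9, 276.6 and 371.5 in non-branching, with a log2 difference of -0.91 ± 0.29 (SE, limma adjusted p = 0.178). Gfra1 read 151.3, 137.9 and 118.9 against 230.6, 234.4 and 373.9, a difference of -1.01 ± 0.34 (limma adjusted p = 0.204). Branching replicates 2 and 3 of Gfra1 were below background, and raising them to that level gives a fold of at least 1.83. Neither gene's regions overlapped. Other members of the list, also named after their values were seen, had the higher mean in branching. Wt1, a kidney and mesothelium regulator, read 300.1, 228.7 and 167.7 against 150, 164.2 and 161.6 (0.51 ± 0.34, limma adjusted p = 0.557). Its regions did not overlap, but only by 167.7 against 164.2, and its non-branching values were just above background. Lhx1, a homeobox gene of the early kidney, read 266.7, 308.1 and 179.2 against 155, 184.3 and 85.8, with overlap (0.86 ± 0.41, limma adjusted p = 0.373). A dimmer second probe set of Gdnf, below background, gave no measure, and Ret, the receptor they share, was at background in both regions.

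Of 6 Pax genes tested, 0 passed by limma (0 at an unadjusted p under 0.05 in either direction), with a median of 0.47. Pax6 and Pax8 were above background on 0 arrays, Pax3 on 2 and Pax2 on 3. The median of the Pax genes thus rests in part on levels that were not measured. The 2 with the smallest p were Pax3, a muscle and neural crest regulator, at 112.9, 193.2 and 134 against 150.1, 55.6 and 58.8 (adjusted p = 0.523), and Pax5, a B cell and midbrain regulator, at 292.7, 172.5 and 153.2 against 78.5, 304.6 and 41.9 (adjusted p = 0.574). Both overlapped between the regions, and a second probe set of Pax5 differed the other way (-1.13, adjusted p = 0.563). Of 4 myogenic genes tested 0 passed (limma; 0 at an unadjusted p under 0.05), with a median of 0.42. Mef2c differed by 0.88 ± 0.70 (adjusted p = 0.632) and Myf6 by 0.81 ± 0.90 (adjusted p = 0.749), and dimmer probe sets of Mef2c did not all share that sign. Both were below background on most arrays. Myod1 and Myog were above it on all 6 arrays and overlapped between the regions (-0.10 ± 0.19, adjusted p = 0.867, and 0.02 ± 0.62, adjusted p = 0.993).

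Of 10 co-repressor and co-activator genes tested, 0 passed by limma, and 3 were lower and 0 higher at an unadjusted p under 0.05 (median -0.18). Tle1, a Groucho co-repressor that sine oculis factors can recruit, read 222.5, 236.1 and 321.7 in branching and 531.8, 457.8 and 506.9 in non-branching, which did not overlap (-0.96 ± 0.24, limma adjusted p = 0.0807). Tle5, a short Groucho relative, differed by -0.35 ± 0.11 (limma adjusted p = 0.165), with 2304.4 to 2852.2 against 3068.6 to 3418.9. The third lower gene was Crebbp (-1.89 ± 0.67, limma adjusted p = 0.229). The Tle genes did not move together. Tle3, named after its values were seen, was higher in branching without overlap (0.28 ± 0.13, limma adjusted p = 0.387), and Tle4 overlapped.

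Of 8 reported targets of the network tested, 0 passed by limma, with 2 higher and 0 lower at an unadjusted p under 0.05 (median 0.19). Ezr, the gene of the membrane-cytoskeleton linker ezrin, read 787.2, 694.8 and 605.3 in branching and 378.9, 252.6 and 406.1 in non-branching. Its regions did not overlap, and the difference was 1.03 ± 0.23 (limma adjusted p = 0.0640; it passed, at 0.0429, when 50% of probe sets were dropped as dim). Ptch1, the hedgehog receptor gene, read 955.3, 812.2 and 961.6 against 529.2, 598.2 and 668.2 on its brightest probe set, a difference of 0.61 ± 0.16 (adjusted p = 0.110). Its second probe set, also above background on all arrays, differed by 1.33 and passed (adjusted p = 0.0138). Shh, the ligand, overlapped between the regions (0.21 ± 0.20, adjusted p = 0.716), and Fgf10 was at background.

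**Figure D4:**
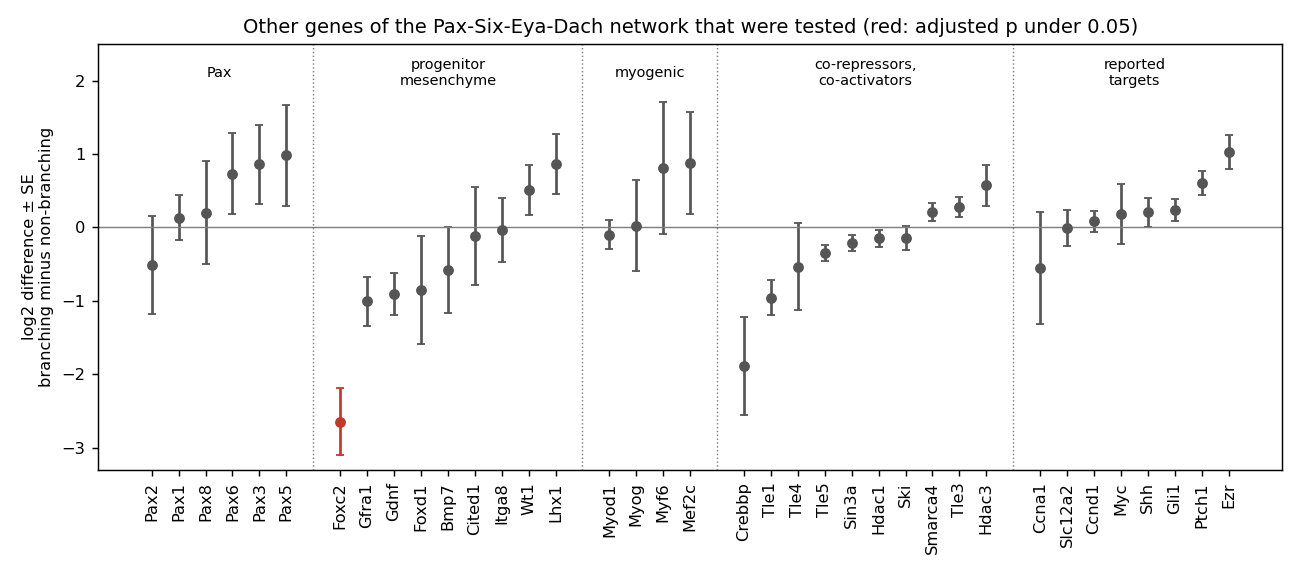
Log2 difference, branching minus non-branching, with the SE of the limma fit, for the 37 tested genes of the network outside the 9 genes themselves, in 5 groups by role. Foxc2, in red, is the 1 gene with an adjusted p under 0.05.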

How the data were processed

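Values are intensities per probe set, linear as deposited; the software and settings the authors used to make them are not given in the sources used here. The mean of each array without its lowest and highest 2% was near 500 (499.713 to 499.918), as computed from the deposited values, and that scaling was kept. Array medians ran from 212 to 229. The 66 control probe sets were left out. Gene symbols came from the platform's annotation table, and matching its gene identifiers to RefSeq changed 0 of them.

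Signals under 16 were set to 16 and log2 was taken. The 25% dimmest probe sets were left out, and 9316 were fitted with limma 3.58.1 in R 4.3.3 (2 groups, eBayes with a variance trend, two-sided, Benjamini-Hochberg). A gene was represented by its probe set with the highest mean log2 signal. The procedure was tried on simulated data with independent normal noise and with changes placed only in probe sets that the filter kept. That trial cannot show how the fit behaves on dim signals or on replicates that are technical. The regulators described and all gene lists were chosen with earlier results of these data known. Named genes were every member; in each part of the network list up to 4 called genes, or, without any call, the 2 lowest in p; and the 5 genes nearest to Six2. Other genes of these lists that are named, among them Gdnf, Gfra1, Wt1, Lhx1, Ret, Shh, Fgf10, Six6, Myod1, Myog and the tissue markers, fall outside this rule and were chosen after their values were seen. The 6 arrays limit the precision of every value. As alternatives, the fit was repeated with the replicate number as a block, 2 normalizations, 2 filters, another floor, an added constant, 2 variance models, leaving out each array, and other uses of a gene's probe sets.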

Additional observations from a re-analysis of the deposited data

How the results depend on the processing

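Six2 was called lower in branching in all 15 alternatives to the fit, and no other probe set of the group was called in any of them. These fits reuse the same arrays, and the genes were chosen with this comparison known, so nothing is read from these calls. Over the 7 probe sets tested, 106 of 107 alternative differences lay within 1 SD of the arrays from the main value. The exception was the Six4 difference averaged over its probe sets, -0.68. This count is no measure of robustness, as the block, the filters and the variance trend cannot change a difference. Leaving out 1 of 3 arrays cannot move it by 1 SD either. The Eya2 difference still ran from -1.79 to 0.07 over its alternatives. The sign changed in 3 of the 107, among differences within their error. Over all probe sets, the 84 called higher became 44 with the replicate number as a block, 38 with no filter on dim probe sets and 5 with no variance trend. The 105 called lower became 70 with the block, 62 with no filter and 17 with no trend. Leaving out 1 array gave 16 (branching replicate 3) to 69 higher and 38 (non-branching replicate 3) to 98 lower. Foxc2 was the 1 network gene called lower; 0 were called lower with no filter or no variance trend, and 0 or 1 with 1 array left out. Of network genes 1 was called higher with the dimmer 50% left out (Ezr), and 1 when any probe set of a gene could count (Ptch1). The replicate numbers were not treated as pairs, since same-numbered arrays correlated at -0.01 to 0.01 in their deviations and no array correlated best with its own number. The replicate block changed no call of a gene named from the network. Signals near the background level limit Six3, Eya4, Dach1 and Eya2, and in branching they limit the size of the Six2 fold.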
